A study of Mus musculus with 6 samples.

Results

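The 10 genes described here, Atf4, Atf5, Ddit3, Trib3, Chac1, Asns, Psat1, Sesn2, Fgf21 and Gdf15, belong to the ATF4 arm of the integrated stress response. They were taken by name, by a rule that sets no threshold on their values but was written with earlier results of these data known, and all 10 were found among the 53342 genes of the deposited table. RNA-seq was performed on skeletal muscle of male mice, with 6 libraries in 3 genotypes and 2 libraries in each. Control mice carried floxed genes and are named for their loxP sites in the library names. LDKO mice (Irs1L/L:Irs2L/L:CreAlb) lacked the insulin receptor substrates Irs1 and Irs2 where Cre was made, and the albumin promoter that drives this Cre is active in hepatocytes. LTKOFstL/L mice carried in addition a follistatin gene, Fst, floxed from exon 2 to exon 5. All 3 groups are labelled as fed a high fat diet, whereas the series text has the mice on chow between 5 and 16 weeks, so the diet shared by the groups is not settled. The deletions were directed to the liver, and the muscle libraries therefore give no check of the genotype. Because the labels do not state that the libraries of a group came from separate animals, p-values measure only the spread between these libraries.

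In the integrated stress response, kinases that sense amino acid shortage, endoplasmic reticulum stress, heme shortage or viral RNA phosphorylate the translation factor eIF2. General protein synthesis falls, while translation of the Atf4 message is favoured, so that ATF4 protein is set to a large extent after transcription. ATF4 then binds DNA with C/EBP partners and raises genes for amino acid synthesis, redox defence and feedback, and in muscle also the secreted factors FGF21 and GDF15.

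The promoters of the genes show where such composite C/EBP-ATF elements can be read in the sequence. All 10 genes had promoters in the RefSeq table (GRCm38.p6), which gives 250 bases before to 50 after each start. The letters TGATGNAAN, searched on both strands, were found in 4 of the 10 genes, against 4.5% of all 27025 genes and 3.95% of 32851 promoters. The windows with a match are shown 5′ to 3′ on the strand of the gene, and capitals mark the matched letters.
Chac1: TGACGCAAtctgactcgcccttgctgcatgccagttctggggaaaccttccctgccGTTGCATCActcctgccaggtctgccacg
Trib3: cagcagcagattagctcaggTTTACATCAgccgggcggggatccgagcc
Asns: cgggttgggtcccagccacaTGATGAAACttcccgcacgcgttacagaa
Fgf21: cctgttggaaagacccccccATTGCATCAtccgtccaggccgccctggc
The Chac1 window lies at chr2:119350992-119351076 on the plus strand. The other windows lie on the minus strand, Trib3 at chr2:152344019-152344067, Asns at chr6:7693204-7693252 and Fgf21 at chr7:45615602-45615650. The match reads forward in Asns, from -23 to -15 relative to the start, and in reverse in Chac1 (-194 to -186), Fgf21 (-140 to -132) and Trib3 (14 to 22, after the start). The first capitals in the Chac1 window are a match to a CRE-like pattern, TGACGNNA, which was also found in Trib3 (-237 to -230). This pattern was found in 7.56% of all genes and 6.61% of all promoters. The endoplasmic reticulum stress element ERSE was found in none of the 10 genes, and in 0.137% of all genes and 0.119% of all promoters. A match describes letters in this window and not a site in use.

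The table holds log2 expression centred on the median of the 6 libraries for each gene, so 0 is the median library of that gene and a value of 1 is a doubling. Centring removes the level of a gene, and a bracket of the level was recovered from the rounding of the stored numbers. On this scale of log2 scaled units, not corrected for gene length, the median library of Atf4 lay between 8.7 and 15.45, Atf5 between 8.5 and 15.6, Ddit3 between 8.8 and 15.9, and Chac1 between 8.55 and 15.6. The brackets were 4.25 to 7.35 for Trib3, 4.75 to 7.85 for Asns, 4.25 to 7.6 for Psat1 and 4.5 to 7.85 for Sesn2. Gdf15, at 2.2 to 3.85, and Fgf21, at 1.4 to 1.65, stood near the detection floor, where a single read was worth between 1.764 and 2.118 scaled units. Genes were tested at a level of at least 4 in 2 or more libraries, which kept 16944 genes and 9 of the 10, all but Fgf21.

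**Figure D1:**
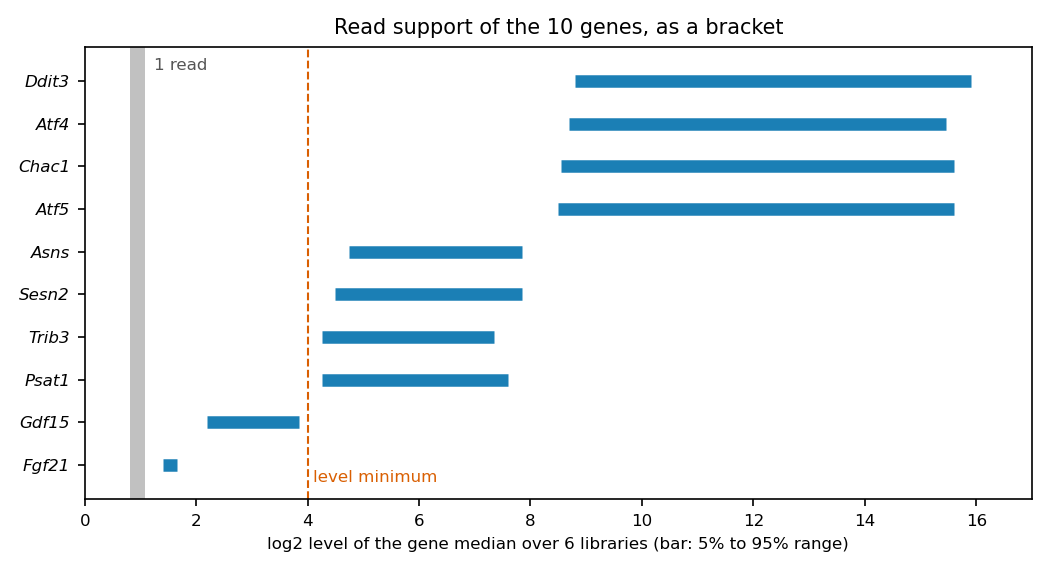
Read support of the 10 genes. The horizontal axis is the log2 level, in scaled units, of each gene's median over the 6 libraries, and each bar spans the 5% to 95% range recovered from the stored digits. Fgf21 and Gdf15 lie lowest, at 1.4 to 1.65 and 2.2 to 3.85.

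Markers of skeletal muscle were present throughout, and markers of pancreatic acinar cells stood high in the Control libraries. All 10 adult skeletal muscle markers were detected in every library, within -0.40 and 0.63 of their own medians. All 18 pancreatic acinar markers were above the floor in both Control libraries, with median centred log2 values of 12.55 and 8.54. Their medians were 1.09 and -1.53 in the LDKO libraries, and the LTKOFstL/L libraries had -1.93 and -2.07. In LDKO replicate 2, 5 of the acinar markers were at the floor, and in the LTKOFstL/L libraries 11 and 10 were. The 7 adipocyte markers had medians of 1.87 and 0.80 in LTKOFstL/L and between -0.86 and 0.07 in the other 4 libraries. In whole muscle, fewer cells of a type and less RNA per cell cannot be told apart.

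No tested gene of the set passed an adjusted p of 0.05 in any comparison (limma, Benjamini-Hochberg over the 16944 genes). For LDKO against Control, 0 of 9 passed, where 0.23% of all tested genes did, and 2 of 9 had an unadjusted p under 0.05, against 6.91% of all tested. For LTKOFstL/L against Control, 0 of 9 passed, against 2.14%, and 3 of 9 had an unadjusted p under 0.05, against 15.3%. For LTKOFstL/L against LDKO, 0 of 9 passed, against 2.73%, and 2 of 9 had an unadjusted p under 0.05, against 19%. These background shares leave 0 of 9 close to the share of all tested genes in each comparison.

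The direction of the set was mixed. The groups did not overlap for 5 of 9 genes between LDKO and Control (33.3% of all tested genes), with 4 higher in LDKO (16.4% of all tested) and 1 lower (16.9%). Between LTKOFstL/L and Control they did not overlap for 7 of 9 (49.9% of all tested), with 3 higher (25.1%) and 4 lower (24.7%) in LTKOFstL/L. Between LTKOFstL/L and LDKO they did not overlap for 4 of 9 (49.2% of all tested), with 0 higher (25%) and 4 lower (24.2%) in LTKOFstL/L. The median log2 difference of the 9 genes was 0.11, -0.09 and -0.22 in these comparisons, against 0.00, 0.00 and 0.01 over all tested genes. The comparisons share libraries and are given side by side for that reason.

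**Figure D2:**
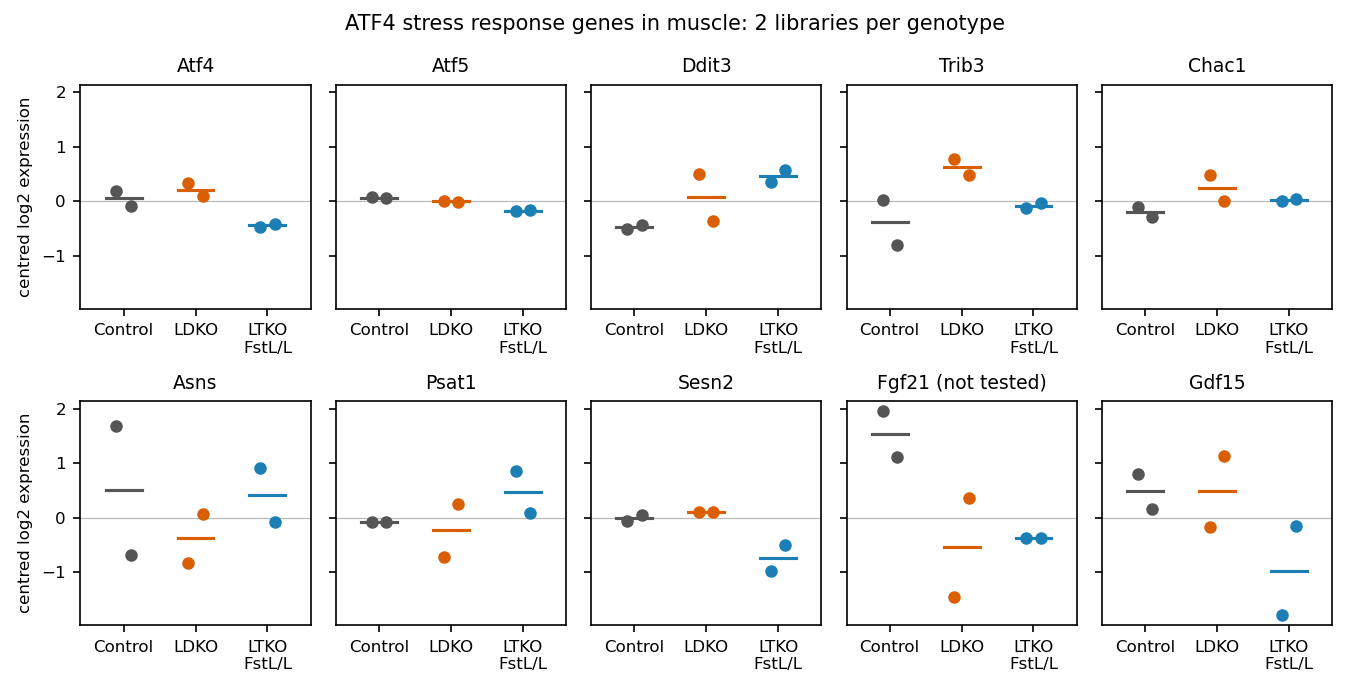
Centred log2 expression of the 10 genes in each of the 6 libraries, by genotype, with a panel for each gene. Atf4, Atf5 and Sesn2 are lowest in both LTKOFstL/L libraries, and Ddit3 and Chac1 are lowest in both Control libraries. Asns spans from -0.82 to 1.69 with overlapping groups.

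Atf4, the transcription factor at the head of the response (ENSMUSG00000042406, chr15:80255184-80257541, plus strand), had the lowest adjusted p of the set. Its centred log2 values were 0.20 and -0.09 in Control, 0.33 and 0.09 in LDKO, while LTKOFstL/L had -0.48 and -0.41. Both LTKOFstL/L libraries lay below the other 4, and the Control and LDKO libraries overlapped. The log2 difference of LTKOFstL/L from LDKO was -0.65 ± 0.16 (SE, n = 2 per group, limma adjusted p = 0.0926), and that from Control was -0.49 ± 0.16 (adjusted p = 0.211). LDKO differed from Control by 0.16 ± 0.16 (adjusted p = 0.885). With each library left out in turn, the difference of LTKOFstL/L was -0.77 to -0.54 from LDKO and -0.64 to -0.35 from Control.

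Atf5, a related transcription factor whose translation is also favoured under stress, varied little. Its values were 0.07 and 0.05 in Control, 0.01 and -0.01 in LDKO, while LTKOFstL/L had -0.19 and -0.16. The 3 groups did not overlap and followed the order Control, LDKO, LTKOFstL/L, over a range of 0.26 in all. The largest difference, LTKOFstL/L from Control, was -0.23 ± 0.13 (adjusted p = 0.464). Exons of Atf5 overlap Il4i1 and Nup62 on the opposite strand, and strand use in the counting is not given in the sources used here, so their reads may be mixed.

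Ddit3, which encodes CHOP, a C/EBP family factor linked to cell death under lasting stress, was lowest in Control. Its values were -0.52 and -0.44 in Control, 0.50 and -0.36 in LDKO, while LTKOFstL/L had 0.36 and 0.58. Both Control libraries were the lowest, and the LDKO libraries stood far apart from each other. LTKOFstL/L exceeded Control by 0.95 ± 0.27 (limma adjusted p = 0.158), and LDKO exceeded Control by 0.55 ± 0.27 (adjusted p = 0.762). Fitted on the Control and LTKOFstL/L libraries alone, the same difference of 0.95 passed, with an adjusted p of 0.0116, and leaving out a single LDKO library gives that same fit. It did not pass without any 1 of the 4 libraries compared, with adjusted p of 0.442 and 0.340 without Control replicates 1 and 2, and 0.375 and 0.510 without LTKOFstL/L replicates 1 and 2. The difference of LDKO from Control was 0.12 without LDKO replicate 1 and 0.98 without LDKO replicate 2. Exons of Ddit3 overlap a second entry of the same name, and on the opposite strand Mars and Gm4189, so their reads may be mixed as well.

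Trib3, a pseudokinase that holds ATF4 back as feedback, was highest in LDKO. Its values were 0.03 and -0.80 in Control, 0.78 and 0.48 in LDKO, while LTKOFstL/L had -0.13 and -0.03. Both LDKO libraries lay above the other 4, and the LTKOFstL/L values fell between those of the Control libraries. LDKO exceeded Control by 1.02 ± 0.34 (limma adjusted p = 0.605), with 1.43 without Control replicate 1 and 0.60 without Control replicate 2. The authors' deposited table lists Trib3 at a log2 difference of 1.018 with a corrected p of 1.317e-07, from their own test. LTKOFstL/L differed from LDKO by -0.71 ± 0.34 (adjusted p = 0.306).

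Chac1, an enzyme that degrades glutathione, had values of -0.11 and -0.29 in Control, 0.48 and 0.00 in LDKO, while LTKOFstL/L had 0.00 and 0.04. Both Control libraries were the lowest, and LTKOFstL/L overlapped LDKO. LDKO exceeded Control by 0.44 ± 0.19 (adjusted p = 0.721), and LTKOFstL/L exceeded Control by 0.22 ± 0.19 (adjusted p = 0.646). The difference of LDKO from Control was 0.21 without LDKO replicate 1 and 0.68 without LDKO replicate 2, and that of LTKOFstL/L from Control was 0.13 without Control replicate 2.

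Asns, asparagine synthetase, had the widest range over the libraries after Fgf21 and Gdf15. Its values were 1.69 and -0.68 in Control, -0.82 and 0.07 in LDKO, while LTKOFstL/L had 0.91 and -0.07. Each group held a high and a low library, and all 3 groups overlapped. The difference of LDKO from Control was -0.88 ± 0.72 (adjusted p = 0.853), and it was 0.30 without Control replicate 1 and -2.07 without Control replicate 2. Control replicate 1 was also the library with the highest acinar marker median, 12.55, and the part of these markers' source in the Asns value was not tested.

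Psat1, an enzyme of serine synthesis, had values of -0.09 and -0.08 in Control, -0.72 and 0.25 in LDKO, while LTKOFstL/L had 0.85 and 0.08. The Control libraries were close together, and LTKOFstL/L lay above them while overlapping LDKO. LTKOFstL/L exceeded Control by 0.55 ± 0.40 (adjusted p = 0.580) and LDKO by 0.70 ± 0.40 (adjusted p = 0.395). Against Control the difference was 0.16 without LTKOFstL/L replicate 1 and 0.94 without LTKOFstL/L replicate 2. Against LDKO it ranged from 0.21 without LDKO replicate 1 to 1.19 without LDKO replicate 2.

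Sesn2, a leucine sensor that restrains the growth kinase mTORC1, was low in LTKOFstL/L. Its values were -0.06 and 0.06 in Control, 0.11 and 0.10 in LDKO, while LTKOFstL/L had -0.98 and -0.50. Both LTKOFstL/L libraries lay below the other 4, as for Atf4 and Atf5. LTKOFstL/L differed from LDKO by -0.85 ± 0.28 (adjusted p = 0.165) and from Control by -0.74 ± 0.28 (adjusted p = 0.266).

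Fgf21, a hormone that acts through the co-receptor beta-Klotho, was too low to be tested with the other genes. Its values were 1.95 and 1.11 in Control, -1.45 and 0.37 in LDKO, while LTKOFstL/L had -0.37 and -0.38. At the level that best matched whole reads, they correspond to 5 and 2.91 reads in Control, the floor and 2 reads in LDKO, and 1 read in each LTKOFstL/L library, with 5 of 6 libraries within 0.01 of a whole read or at the floor. Both Control libraries lay above the other 4. In a fit with no level filter, the log2 differences from Control were -2.07 ± 0.73 for LDKO (limma adjusted p = 0.742) and -1.90 ± 0.73 for LTKOFstL/L (adjusted p = 0.446). The authors' deposited tables list the same differences, -2.073 and -1.904, with corrected p-values of 0.02612 and 0.0413. Acinar markers were also highest in both Control libraries, and their part in the Fgf21 values was not tested.

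Gdf15, a stress hormone that acts on the hindbrain receptor GFRAL, also rested on few reads. Its values were 0.81 and 0.16 in Control, -0.16 and 1.13 in LDKO, while LTKOFstL/L had -1.78 and -0.16. At the level that best matched whole reads they correspond to 6 and 4 reads in Control, 3.58 and 9 in LDKO, while LTKOFstL/L had 1 and 3.09. Only 4 of 6 libraries lay within 0.01 of a whole read at that level, at which the gene would not have been tested. LTKOFstL/L differed from LDKO by -1.45 ± 0.81 (adjusted p = 0.373), while the authors' deposited table lists -1.45 with a corrected p of 0.0406. The difference was -0.64 and -2.26 without LTKOFstL/L replicates 1 and 2, and -2.10 and -0.81 without LDKO replicates 1 and 2.

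**Figure D3:**
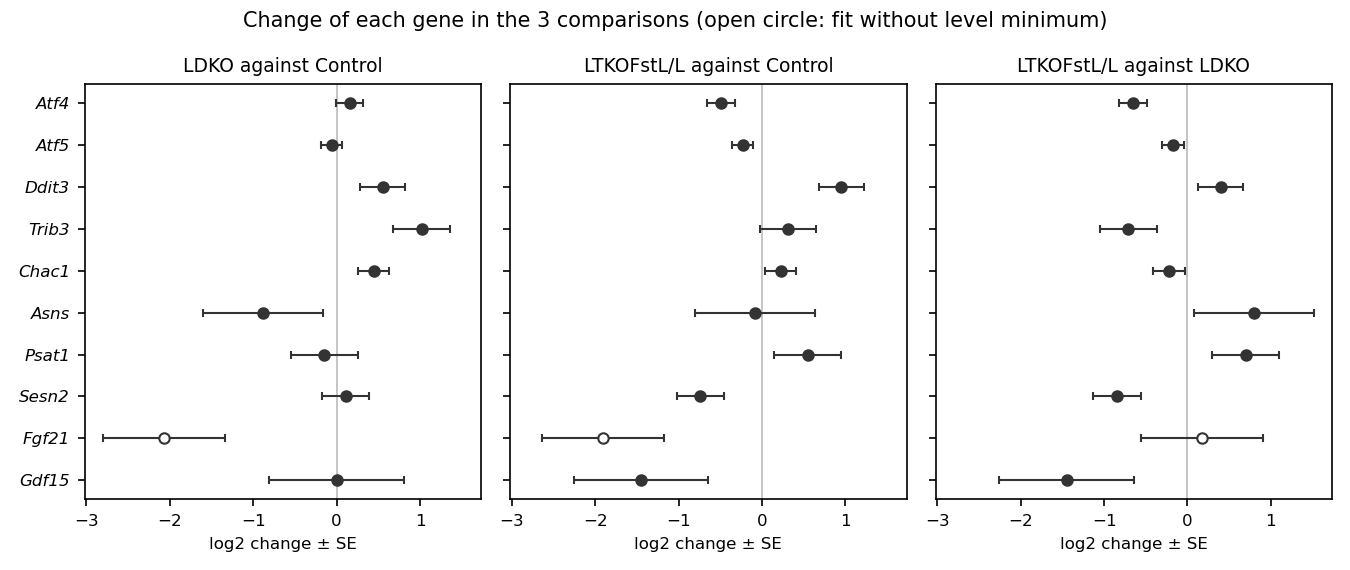
Log2 differences between the genotypes for the 10 genes, with bars of 1 SE from limma and a panel for each comparison. The open circle is Fgf21 from the fit with no level filter, and no gene passed an adjusted p of 0.05.

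Other genes, of the pathway or beside it and called pathway genes here, were examined in 9 lists. The lists were chosen with earlier results of these data known. None of their tested genes passed between LDKO and Control, and those that passed in the other comparisons were all lower in LTKOFstL/L, where 1.28% of all tested genes were called lower against Control and 1.5% against LDKO. Ppp1r15a (GADD34), the phosphatase subunit that reverses eIF2 phosphorylation, had centred log2 values of 0.07 and -0.07 in Control, 0.45 and 0.32 in LDKO, while LTKOFstL/L had -1.89 and -1.81. It was lower in LTKOFstL/L by a log2 difference of -1.85 ± 0.14 from Control (limma adjusted p = 0.00283) and -2.23 ± 0.14 from LDKO (adjusted p = 0.00188). It was the gene that passed of 17 tested kinases, eIF2 subunits and phosphatases, and it passed in all 16 alternative settings. The median difference of this list was -0.12 from Control and -0.15 from LDKO. With a single prior in place of level strata, both Ppp1r15a calls held, at adjusted p of 0.0486 against Control and 0.0312 against LDKO. The other 14 of the 16 calls on pathway genes were then lost. Markers of other cell types also differed between the genotypes. In LTKOFstL/L against LDKO, 3 of 6 fibroblast and tendon markers were higher (list median 1.18) and 1 of 7 adipocyte markers was (median 1.63). Against Control, 1 of 6 (median 0.20) and 1 of 7 (median 1.51) were higher. Of the 16944 tested genes, 209 were called higher against LDKO and 145 against Control. The fibroblast and tendon median was lowest in the LDKO libraries, at -0.66 and -0.82. Between LDKO and Control it differed by -0.98, with none of these markers passing. No macrophage and leukocyte, endothelial or Schwann cell marker passed in any comparison. None of 8 hepatocyte markers passed, with medians of -0.77 against Control and -0.75 against LDKO. The part of these cell types in the pathway differences was not tested.

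Among 11 tested partner and stress transcription factors, 3 fell in LTKOFstL/L against Control and 1 against LDKO, with list medians of -0.59 and -0.32. Cebpd, a C/EBP factor, differed by -1.87 ± 0.33 from Control (adjusted p = 0.0432) and -2.54 ± 0.33 from LDKO (adjusted p = 0.0173). Nfe2l2, the regulator of antioxidant genes, differed from Control by -1.48 ± 0.28 (adjusted p = 0.0483). Cebpb differed from Control by -0.94 ± 0.16 (adjusted p = 0.0414). Each of these calls was lost when LTKOFstL/L replicate 1 or LTKOFstL/L replicate 2 was left out. The adjusted p then reached 0.209 for Cebpd against Control, 0.0998 for Cebpd against LDKO, and 0.242 for both Nfe2l2 and Cebpb. The calls against Control were also lost without Control replicate 1, at adjusted p of 0.107 for Cebpd, 0.212 for Nfe2l2 and 0.230 for Cebpb. Without Control replicate 2 the adjusted p was 0.168 for Nfe2l2 and 0.0907 for Cebpb. Against LDKO, Cebpd had an adjusted p of 0.0981 without LDKO replicate 1 and 0.0856 without LDKO replicate 2. Fitted on the Control and LTKOFstL/L libraries alone, which is also the fit without a single LDKO library, Cebpd had 0.114.

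Of 10 tested paralogues and growth brakes, 1 fell in LTKOFstL/L against Control and 3 against LDKO, with list medians of -0.21 and -0.30. Ddit4 (REDD1), an inhibitor of mTORC1, had values of 1.01 and 0.17 in Control, -0.17 and 0.64 in LDKO, while LTKOFstL/L had -2.57 and -2.14. It differed by -2.95 ± 0.35 from Control (adjusted p = 0.0127) and -2.59 ± 0.35 from LDKO (adjusted p = 0.0188). Sesn1, the paralogue of Sesn2, differed from LDKO by -2.87 ± 0.35 (adjusted p = 0.0146), and Eif4ebp1, a translation repressor, by -1.76 ± 0.32 (adjusted p = 0.0413). Without LTKOFstL/L replicate 1, the adjusted p was 0.0707 for Ddit4 against Control and 0.105 against LDKO, 0.0718 for Sesn1 and 0.208 for Eif4ebp1. Without LTKOFstL/L replicate 2 it was 0.0676 for Ddit4 against LDKO, 0.0802 for Sesn1 and 0.145 for Eif4ebp1, and without Control replicate 1 it was 0.0663 for Ddit4 against Control. Without LDKO replicates 1 and 2 in turn it was 0.0781 and 0.0763 for Sesn1, and 0.153 and 0.0716 for Eif4ebp1.

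In 3 further lists a single gene fell against both other groups. Slc43a1, a carrier of large neutral amino acids and 1 of 9 transporters tested, differed by -1.90 ± 0.29 from Control (adjusted p = 0.0272) and -2.64 ± 0.29 from LDKO (adjusted p = 0.0111). Clpx, the unfoldase of the mitochondrial ClpXP protease and 1 of 9 mitochondrial stress genes, differed by -1.11 ± 0.16 (adjusted p = 0.0215) and -1.20 ± 0.16 (adjusted p = 0.0166). Fgfr1, a receptor through which FGF21 acts and 1 of 5 receptors tested, differed by -0.79 ± 0.14 (adjusted p = 0.0430) and -0.87 ± 0.14 (adjusted p = 0.0297). Against Control, Clpx and Fgfr1 lost the call without any 1 of the 4 libraries compared, and Slc43a1 without Control replicate 1, LTKOFstL/L replicate 1 or LTKOFstL/L replicate 2. The highest adjusted p was 0.139 for Slc43a1, 0.162 for Clpx and 0.305 for Fgfr1, each without LTKOFstL/L replicate 2. Against LDKO, the adjusted p without LTKOFstL/L replicate 2 was 0.0506 for Slc43a1, 0.115 for Clpx and 0.209 for Fgfr1. Without LTKOFstL/L replicate 1 it was 0.105 for Clpx and 0.154 for Fgfr1, and with the LDKO and LTKOFstL/L libraries alone, which is also the fit without a single Control library, it was 0.0605 for Fgfr1.

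**Figure D4:**
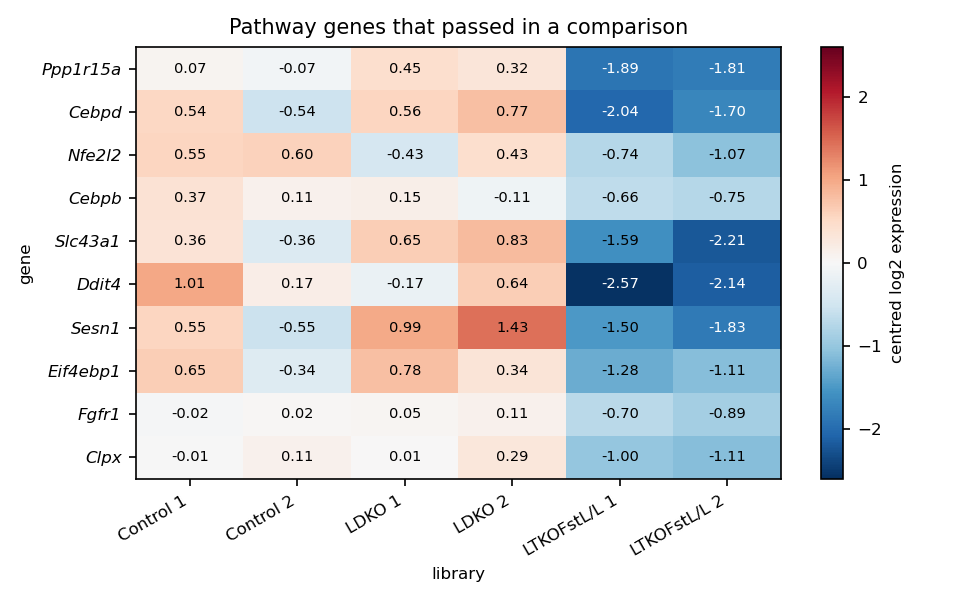
Centred log2 expression, in each of the 6 libraries, of the 10 genes from the pathway lists that passed in at least 1 comparison. Besides stress response genes, these 10 include a paralogue, a receptor and a mitochondrial gene. All 10 are lowest in the LTKOFstL/L libraries, with Ddit4 at -2.57 and -2.14 and Ppp1r15a at -1.89 and -1.81.

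None of the 12 tested genes of amino acid synthesis and one-carbon metabolism, the 13 aminoacyl-tRNA synthetase and export genes or the 18 endoplasmic reticulum chaperone and unfolded protein response genes passed in any comparison. The serine synthesis gene Psph had a log2 difference of 1.26 ± 0.27 between LTKOFstL/L and LDKO (limma adjusted p = 0.0535). The cystathionine synthase gene Cbs differed from Control by -1.40 ± 0.30 in LTKOFstL/L (adjusted p = 0.0600) and -1.13 ± 0.30 in LDKO (adjusted p = 0.447). Its values were 1.43 and 0.84 in Control, 0.08 and -0.08 in LDKO, while LTKOFstL/L had -0.32 and -0.21. Acinar markers were also highest in both Control libraries, and their part in the Cbs values was not tested. Between LTKOFstL/L and LDKO, 13 of the 18 chaperone genes had the higher mean in LTKOFstL/L, and the median difference was 0.22. Counted in either direction, 7 had an unadjusted p under 0.05 (19% of all tested genes). Against Control, 3 of 18 had an unadjusted p under 0.05 (15.3% of all tested genes), with a median of 0.06, and between LDKO and Control 0 of 18 did (6.91%). Sdf2l1, an ER chaperone component, had a difference between LTKOFstL/L and LDKO of 1.00 ± 0.29 (adjusted p = 0.117). Edem1, of the same list, went the other way, by -0.68 ± 0.19 (adjusted p = 0.117). Against Control, LTKOFstL/L differed by -0.61 ± 0.35 for Ern1 (adjusted p = 0.4785) and 0.57 ± 0.29 for Sdf2l1 (adjusted p = 0.404). Of the synthetase genes, 1 of 13 had the higher mean in LTKOFstL/L than in LDKO, with a median difference of -0.21 (0.01 over all tested genes). In that comparison 1 of 13 had an unadjusted p under 0.05 (19% of all tested genes). Between LDKO and Control, 10 of 13 had the higher mean in LDKO, with a median of 0.07.

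The genes whose profile over the 6 libraries was most like that of Atf4, among 6449 tested genes with a range of at least 1, were Zc3h12b (Pearson r = 0.9991), Ptp4a3 (r = 0.9973) and Eif4ebp1 (r = 0.9953). For the mean of the 9 tested genes they were Proser2 (r = 0.977), Unc13d (r = 0.975) and Gm45155 (r = 0.970). These values rank genes over 6 libraries that fall into 3 groups, and they describe likeness of profile only.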

How the data were processed

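Skeletal muscle RNA was measured in 6 libraries, 2 per genotype; total RNA was isolated with TRI Reagent and libraries were made with a SMARTer mRNA kit, per the labels' protocols. The genome build was mm10, per the submitters' processing notes; not given in the sources used here: aligner, counting, normalization. The deposited values are log2 expression centred per gene on the median of the libraries, as judged from the values, with a floor. The authors' deposited lists give p-values and corrected p-values of a test that a header names as AC, and hold only genes at least 2-fold changed with a corrected p of at most 0.05, as tested on the values.

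The level that centring removed was bracketed from the single-precision rounding of the stored numbers, with the 5% and 95% points of its likelihood. Total depth is unknown, since the files give no read totals; 24151 to 24755 genes were above the floor per library. Genes with a level of at least 4 (16 scaled units) in at least 2 libraries were kept, taking the median of the level's likelihood. These were 16944 of 30413 detected genes. They were fitted with limma 3.58.1 in R 4.3.3, with 1 mean per genotype and 3 residual degrees of freedom. The prior was robust, in 3 strata of the lowest library's level. Two-sided p-values were adjusted over all tested genes by Benjamini-Hochberg at 0.05. The fit was tested on simulated data. Values after ± are SE.

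All 10 genes were named; of each pathway list, up to 4 passing genes per direction were eligible, or the 2 with the largest change where none passed, and some of the latter are not printed. For likeness, the 3 genes with the highest correlation were named. The genes and lists were chosen with earlier results of these data known. Gene positions are from GENCODE M21 on GRCm38. The alternatives were a replicate term, other priors, level filters, normalizations and thresholds, and each library left out.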

Additional observations from a re-analysis of the deposited data

How the results depend on the processing

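No call on a pathway gene changed direction under the alternatives run. None of the 10 genes was called in the main fit, and some of their differences changed sign with a library left out. For LDKO against Control these were Asns (-2.07 to 0.30), Psat1 (-0.64 to 0.34) and Gdf15 (-0.64 to 0.65). For LTKOFstL/L against Control they were Trib3 (-0.11 to 0.73) and Asns (-1.27 to 1.10). For LTKOFstL/L against LDKO they were Ddit3 (-0.03 to 0.83), Chac1 (-0.46 to 0.01) and Fgf21 (-0.74 to 1.08). The main counts of called genes were 39 for LDKO against Control, 362 for LTKOFstL/L against Control and 463 for LTKOFstL/L against LDKO. In that order they were 1, 30 and 58 with a single prior, and 2, 96 and 197 with no level filter. With only the groups compared they were 5, 636 and 289, and 1 gene of the set passed, Ddit3 in LTKOFstL/L against Control. For LDKO against Control the count was 3 with a spline trend and 19 without acinar genes. At a threshold of 0.10 the counts for LTKOFstL/L were 621 genes against Control and 1020 against LDKO, where 1 gene of the set, Atf4, passed. Its limma adjusted p against LDKO was 0.0926 in the main fit and 0.0640 with a level of at least 8. It was 0.120 with only the groups compared, 0.151 with no level filter and 0.211 with a single prior. Leaving out each library gave 2 to 54, 38 to 636 and 33 to 711 called genes, and 0 to 1 of the set for LTKOFstL/L against Control, the gene being Ddit3 in the fit without an LDKO library, which equals that on the groups compared. A library left alone in its group was assumed to vary like the other groups. For Fgf21, alternatives on the fit with no level filter were chosen after seeing the data, and leaving out each library gave log2 differences from Control of -2.98 to -1.16 for LDKO and -2.33 to -1.48 for LTKOFstL/L, with none passing. Deviations of same-numbered libraries from their group means had correlations of 0.2014 (Control and LDKO), -0.0477 (Control and LTKOFstL/L) and -0.1928 (LDKO and LTKOFstL/L). With 2 libraries per group these values cannot show whether the libraries were paired, and the labels state no pairing. With the replicate block 276 genes were called for LTKOFstL/L against LDKO, 41 for LDKO against Control and 244 for LTKOFstL/L against Control. The pathway genes gave 16 calls, of which 14 were lost with a single prior (adjusted p 0.0750 to 0.157), 8 with no level filter (0.0527 to 0.0934), 2 with only the groups compared, 1 with quantile normalization and 1 without acinar genes. With the replicate block 4 were lost: Nfe2l2 (0.0620), Cebpd (0.0553) and Fgfr1 (0.0827) against Control, and Fgfr1 (0.0591) against LDKO. Ppp1r15a passed in every setting. The cause of these changes was not tested. With 3 residual degrees of freedom, an adjusted p over the threshold does not show that groups were alike, and for Fgf21 and Gdf15 the few reads limit any comparison.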
